A study of Homo sapiens with 9 samples.

Results

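LAPTM5, INPP5D, PTPRC, RASSF5 and ARAP3 are leukocyte receptor and signal regulator genes whose RNA was higher in K562 cells depleted of the RNA helicase DHX34. They were chosen by their higher counts in the DHX34 knockdown, out of 17004 genes tested there against the control, so their values in that comparison are given as a description and were not tested again. Each gene was followed as the sum of its transcripts and isoform by isoform in 3 groups of 3 libraries. K562 is an established human erythroleukaemia cell line, and the labels write its name both as K562 and as K652. All cells were transfected with siRNA and harvested on day 4, and the poly(A) RNA was sequenced. The control group (SCR) received a non-targeting siRNA pool, the siDHX34 group received siRNAs against DHX34 and the siUPF1 group siRNAs against UPF1. The study's methods call replicates biological, but p-values measure only the spread between these libraries. In bulk RNA a larger share of cells with a transcript and more transcript per cell cannot be told apart.

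Leukocytes carry receptors whose signals pass through tyrosine kinases, lipid messengers and small GTPases, and each step has its own brakes and amplifiers. PTPRC is the receptor tyrosine phosphatase CD45, which sets the activity of Src family kinases and is spliced to forms of different length in different blood cells. LAPTM5 is a lysosomal membrane protein that lowers the surface level of antigen receptors. INPP5D encodes SHIP1, the phosphatase that removes the 5-phosphate from the lipid made by PI3-kinase. RASSF5 encodes an effector of Rap1 and Ras, and its short form RAPL couples Rap1 to integrin activation. ARAP3 is a GTPase-activating protein for small GTPases such as Arf that binds the same PI3-kinase lipid. DHX34 and UPF1 are helicases of nonsense-mediated decay (NMD), in which RNAs whose reading frame stops too early are broken down.

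On the GRCh38 build with GENCODE release 44, 3 of the 5 genes lie on chromosome 1. LAPTM5 (ENSG00000162511) spans chr1:30732469-30757774 on the minus strand, PTPRC (ENSG00000081237) chr1:198638457-198757476 on the plus strand, and RASSF5 (ENSG00000266094) chr1:206507531-206589448 on the plus strand. INPP5D (ENSG00000168918) spans chr2:233059967-233207903 on the plus strand and ARAP3 (ENSG00000120318) chr5:141653401-141682230 on the minus strand. All are annotated as protein coding. The last part of RASSF5 lies opposite EIF2D, and because the strand of the libraries is not given in the sources used here, reads from exons of both cannot be told apart by strand. EIF2D ran from 55.2 to 59.4 TPM in SCR, from 59.7 to 61.4 in siDHX34 and from 64.7 to 67.2 in siUPF1.

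The 300 bases around 1 start site of each gene, 250 before it and 50 after it, are shown. The reasons are that the 5 genes were higher together and that leukocyte promoters often hold the core bound by ETS factors such as PU.1. The sequences are the RefSeq windows of GRCh38.p14, written 5′ to 3′ along each gene's own strand. The gene spans of PTPRC and INPP5D begin before their windows, at 198638457 and 233059967, and distances are counted from the start used. Capitals mark matches on either strand to the ETS core AGGAAG, to its variant GAGGAA and to the GATA site AGATAA. The windows are chr1:30757725-30758024 (minus) for LAPTM5, chr2:233060092-233060391 (plus) for INPP5D, chr1:198638790-198639089 (plus) for PTPRC, chr1:206556914-206557213 (plus) for the short form of RASSF5 and chr5:141682181-141682480 (minus) for ARAP3.
LAPTM5: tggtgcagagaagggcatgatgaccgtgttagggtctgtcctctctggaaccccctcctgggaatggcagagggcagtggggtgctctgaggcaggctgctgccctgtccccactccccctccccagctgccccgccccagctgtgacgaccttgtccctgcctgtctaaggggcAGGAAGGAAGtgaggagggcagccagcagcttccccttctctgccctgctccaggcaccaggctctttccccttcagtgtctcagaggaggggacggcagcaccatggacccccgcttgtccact
INPP5D: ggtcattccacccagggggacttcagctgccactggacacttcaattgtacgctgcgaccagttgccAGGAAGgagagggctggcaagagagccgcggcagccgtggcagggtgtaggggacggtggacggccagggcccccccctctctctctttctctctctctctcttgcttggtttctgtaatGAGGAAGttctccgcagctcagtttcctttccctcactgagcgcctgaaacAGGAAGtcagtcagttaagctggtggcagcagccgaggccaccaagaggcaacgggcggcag
PTPRC: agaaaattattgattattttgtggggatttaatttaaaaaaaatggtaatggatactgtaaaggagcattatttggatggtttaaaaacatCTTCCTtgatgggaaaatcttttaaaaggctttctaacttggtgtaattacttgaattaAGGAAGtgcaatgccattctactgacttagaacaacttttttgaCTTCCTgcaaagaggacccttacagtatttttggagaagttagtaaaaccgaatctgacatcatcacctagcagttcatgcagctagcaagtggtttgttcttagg
RASSF5: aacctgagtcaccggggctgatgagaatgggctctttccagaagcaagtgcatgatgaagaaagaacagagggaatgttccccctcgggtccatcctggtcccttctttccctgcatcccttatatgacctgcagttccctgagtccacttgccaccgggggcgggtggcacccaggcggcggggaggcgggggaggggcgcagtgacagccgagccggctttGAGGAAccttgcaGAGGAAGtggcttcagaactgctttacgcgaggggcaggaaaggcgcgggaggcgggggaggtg
ARAP3: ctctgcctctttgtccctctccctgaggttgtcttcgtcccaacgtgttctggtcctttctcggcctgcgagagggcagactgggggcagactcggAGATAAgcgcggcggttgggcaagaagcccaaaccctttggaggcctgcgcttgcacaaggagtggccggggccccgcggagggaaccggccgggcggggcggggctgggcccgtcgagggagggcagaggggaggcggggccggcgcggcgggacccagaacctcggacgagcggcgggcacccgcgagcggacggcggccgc

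All 35116 RefSeq windows of this kind were searched on both strands. AGGAAG, the ETS core with its flanks, was searched after the windows had been read, and 4 of the 5 windows held it, 9 matches in all, while 33.6% of all windows did. In PTPRC and INPP5D there were 3 matches each, the nearest to the start site beginning 56 bases before it in PTPRC (distance -56) and 12 bases before it in INPP5D (distance -12). LAPTM5 held 2 overlapping matches at -75 and -71, and the RASSF5 window had 1 match at -13. The ARAP3 window held none. GAGGAA, the form preferred by PU.1, overlaps AGGAAG by 5 letters and was found in 2 windows, INPP5D and RASSF5 (27.9% of all windows). AGATAA, the site of GATA factors, stood in the ARAP3 window alone among the 5 (10.3% of all windows). GGGCGG, an Sp1 site, was in 4 of the 5 windows and not in PTPRC, and 45% of all windows held it. TGTGGT, a RUNX site (13.1% of all windows), and CACGTG, an E-box (7.26%), were in none of the 5. PTPRC had 33.7% G and C in its window, against 60.3% to 72.3% in the other 4. A match only says that these letters are in the window.

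Each siRNA target was lower in its own knockdown. DHX34 ran from 18.2 to 19.4 TPM in SCR, from 9.40 to 11.0 in siDHX34 and from 21.9 to 23.0 in siUPF1. UPF1 ran from 46.4 to 51.4 TPM in SCR, from 22.9 to 23.2 in siUPF1 and from 52.7 to 54.9 in siDHX34. TPM is a level per length relative to all transcripts of a library, so it can be compared between genes. Library totals ran from 73478797 to 103625443 expected counts.

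PTPRC was the most abundant of the 5 in each group. Its level was 12.9, 14.9 and 14.1 TPM in the SCR libraries, 26.9, 26.6 and 28.4 in siDHX34 and 20.7, 22.7 and 21.2 in siUPF1. The 3 groups did not overlap, with siDHX34 highest and siUPF1 between it and SCR. The group means were 14.0 ± 1.02, 27.3 ± 0.968 and 21.5 ± 1.05 TPM (SD, n = 3). In expected counts these levels rested on 3179 to 4108 counts per SCR library, 5903 to 8369 in siDHX34 and 4771 to 6538 in siUPF1.

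RASSF5, the Rap1 effector, stood at 10.3, 10.4 and 10.6 TPM in SCR, 20.6, 22.0 and 21.2 in siDHX34 and 10.3, 11.6 and 10.4 in siUPF1. The siDHX34 libraries lay above the other 6, while siUPF1 overlapped SCR. Its means were 10.4 ± 0.184, 21.3 ± 0.721 and 10.8 ± 0.757 TPM (SD, n = 3).

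LAPTM5, the lysosomal regulator of receptors, was at 7.95, 7.44 and 7.85 TPM in SCR and at 22.4, 23.5 and 22.8 in siDHX34. In siUPF1 it was at 6.36, 7.26 and 6.74 TPM. The lowest siDHX34 library exceeded the highest SCR library, and all siUPF1 libraries lay below all SCR libraries. The means were 7.75 ± 0.271, 22.9 ± 0.531 and 6.78 ± 0.452 TPM (SD, n = 3), so that LAPTM5 passed RASSF5 in siDHX34 and lay under it in the other groups.

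ARAP3 was at 1.95, 1.82 and 1.56 TPM in SCR, 6.31, 6.86 and 6.82 in siDHX34 and 1.66, 1.60 and 1.62 in siUPF1. Its siDHX34 libraries stood apart from the other 6, and those of siUPF1 fell within the range of SCR. The means were 1.78 ± 0.200, 6.66 ± 0.310 and 1.63 ± 0.0302 TPM (SD, n = 3).

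INPP5D had the lowest level of the 5 in each group. Its values were 0.713, 1.21 and 0.691 TPM in SCR, 2.58, 3.19 and 3.03 in siDHX34 and 1.15, 0.992 and 1.27 in siUPF1. The siDHX34 libraries were again the 3 highest, and SCR and siUPF1 overlapped. The means of 0.871 ± 0.293, 2.93 ± 0.315 and 1.14 ± 0.139 TPM (SD, n = 3) rested on 136, 191 and 244 expected counts in SCR, 935, 709 and 755 in siDHX34 and 219, 233 and 243 in siUPF1. In no group did neighbours in the order of levels overlap. In siDHX34, LAPTM5 and RASSF5 came to 22.4 and 22.0 TPM in their nearest libraries.

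**Figure D1:**
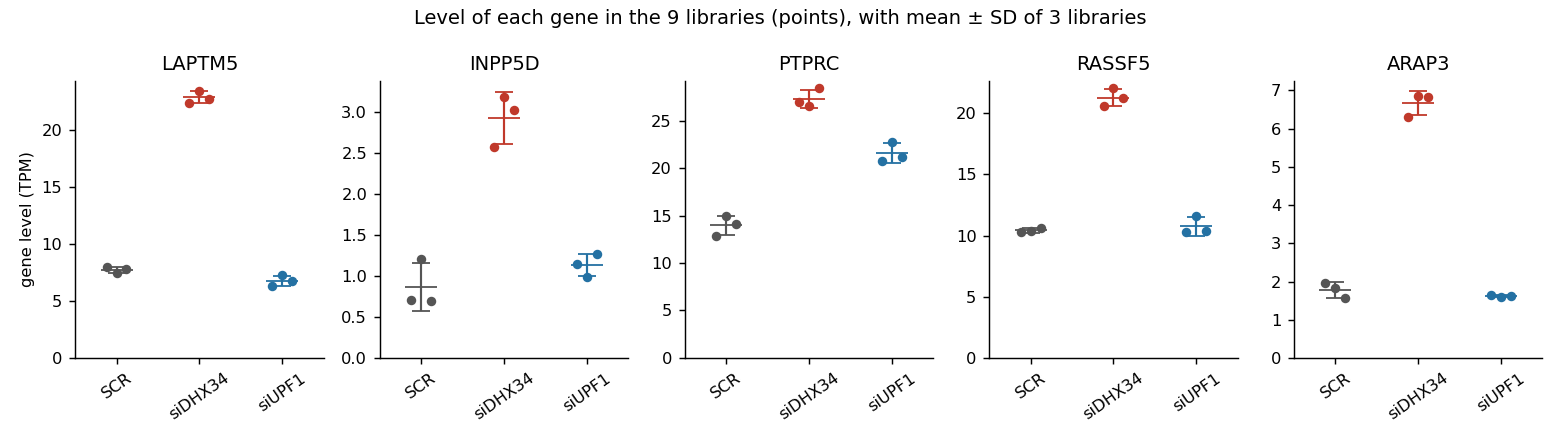
Gene level in TPM (vertical axis, from 0, own scale for each gene) of LAPTM5, INPP5D, PTPRC, RASSF5 and ARAP3 in the 9 libraries, by group (SCR, siDHX34, siUPF1); points are libraries, and the bars give the mean ± SD of 3. The siDHX34 libraries are the 3 highest for each gene, and PTPRC alone also has its siUPF1 libraries, at 20.7 to 22.7 TPM, well above SCR.

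In all 5 genes the ranges of siDHX34 and SCR did not overlap. This is the contrast that chose them, and 5.54% of the 17004 genes tested there were called raised (edgeR, Benjamini-Hochberg adjusted p of at most 0.005), so the count of 5 says nothing further. The fitted difference was largest for INPP5D, with a log2 fold change of 1.91 (SE 0.133, 3.75-fold), and for ARAP3, with 1.82 (SE 0.0755, 3.52-fold). LAPTM5 followed with 1.42 (SE 0.0592, 2.67-fold). RASSF5 and PTPRC had less than 1 on this scale, 0.88 (SE 0.0443, 1.84-fold) and 0.80 (SE 0.0412, 1.75-fold). Ordered by log2 fold change over all genes tested, INPP5D was in place 44, ARAP3 55, LAPTM5 133, RASSF5 499 and PTPRC 623. The median over the 5 was 1.42, and over all genes 0.02.

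The comparison of siUPF1 with SCR, whose libraries also served in the choice, called 2 of the 5 genes at the same threshold. Of all 17184 genes tested there, 12.4% were called raised and 12.9% lowered, which is the background for 1 rise and 1 fall among the 5. PTPRC rose, with a log2 fold change of 0.42 (edgeR adjusted p = 2.73e-06, SE 0.0351), and was higher in 3 of 3 knockdown libraries. LAPTM5 fell by 0.40 on the log2 scale (edgeR adjusted p = 0.000478, SE 0.067), and was lower in 3 of 3. This call was lost on the TPM scale, where limma gave LAPTM5 -0.18 with an adjusted p of 0.10, and where the median of all genes stood 0.152 higher than in the fit on counts. ARAP3 had -0.29 (edgeR adjusted p = 0.0198, SE 0.089) and RASSF5 -0.16 (edgeR adjusted p = 0.0254, SE 0.0513), both above the threshold, and RASSF5 turned to 0.04 on the TPM scale. INPP5D had 0.03 (edgeR adjusted p = 0.92, SE 0.167), and its sign changed without SCR replicate 1 (-0.13) or UPF1 replicate 1 (-0.06).

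Set directly against siDHX34, without any SCR library, siUPF1 was lower for each of the 5 genes. The log2 difference of siUPF1 minus siDHX34 was -2.09 (SE 0.0608) for ARAP3, -1.87 (SE 0.101) for INPP5D and -1.80 (SE 0.0553) for LAPTM5. For RASSF5 it was -1.03 (SE 0.05). PTPRC, the gene that was higher in both knockdowns, had the smallest difference, -0.37 (SE 0.0336). The median of the 5 was -1.80 and that of all genes 0.01. The siDHX34 libraries enter this difference as they entered the choice, so it is a description.

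**Figure D2:**
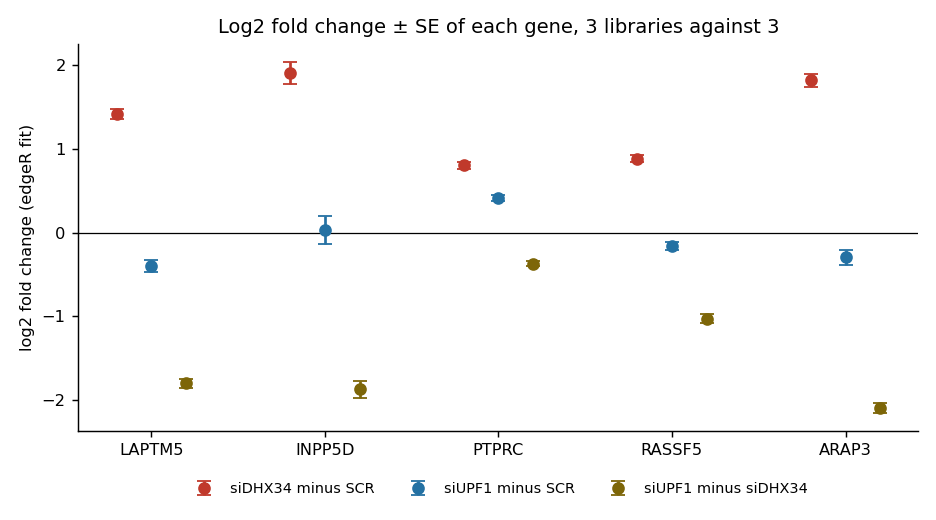
Log2 fold change (vertical axis) of the 5 genes in the edgeR fits, for siDHX34 minus SCR (red), siUPF1 minus SCR (blue) and siUPF1 minus siDHX34 (brown); bars are ± SE, 3 libraries against 3. The red points lie between 0.80 and 1.91, the blue points between -0.40 and 0.42, and the brown points are all under 0.

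The deposited tables hold 50 annotated transcripts of the 5 genes. The NMD biotype was given to 1 of them, a transcript of INPP5D that had no counts in SCR or in siUPF1 and a mean of 0.0324 TPM in siDHX34. A retained intron was annotated in 13. Protein-coding transcripts carried the difference in each gene, with means of 7.55, 22.7 and 6.65 TPM in SCR, siDHX34 and siUPF1 for LAPTM5 and 0.455, 2.07 and 0.589 for INPP5D. The retained-intron transcripts of PTPRC were at 0.211, 0.216 and 0.345 TPM in the same order.

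LAPTM5 and RASSF5 were each dominated by a single transcript. LAPTM5-201 held 97.4% ± 1.59 of LAPTM5 TPM in SCR, 99.0% ± 0.543 in siDHX34 and 98.2% ± 2.82 in siUPF1 (SD, n = 3). RASSF5-201 held 90.2% ± 2.27, 90.8% ± 1.71 and 89.5% ± 2.53 of RASSF5 TPM (SD, n = 3). The differences between groups were smaller than the spread of the libraries.

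RASSF5 has alternative start sites, and RASSF5-201 begins at the downstream one, with the first exon at chr1:206557165-206557693, which gives the short form RAPL. The long-form transcripts begin with the exon at chr1:206507531-206508059. Transcripts from the downstream first exon summed to 9.53, 9.14 and 9.76 TPM in SCR, 19.0, 19.9 and 19.5 in siDHX34 and 9.50, 10.1 and 9.46 in siUPF1. Those from the upstream first exon were at 0.297, 0.651 and 0.481 TPM in SCR, 1.13, 1.60 and 1.43 in siDHX34 and 0.628, 0.747 and 0.530 in siUPF1. Both starts were thus higher in all siDHX34 libraries than in the other 6. The upstream start gave 4.57% ± 1.70 of RASSF5 TPM in SCR, 6.51% ± 0.909 in siDHX34 and 5.88% ± 0.677 in siUPF1 (SD, n = 3). Between siUPF1 and SCR this share had an exact two-sided permutation p of 0.3, where 0.1 is the smallest possible with 3 libraries against 3.

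**Figure D3:**
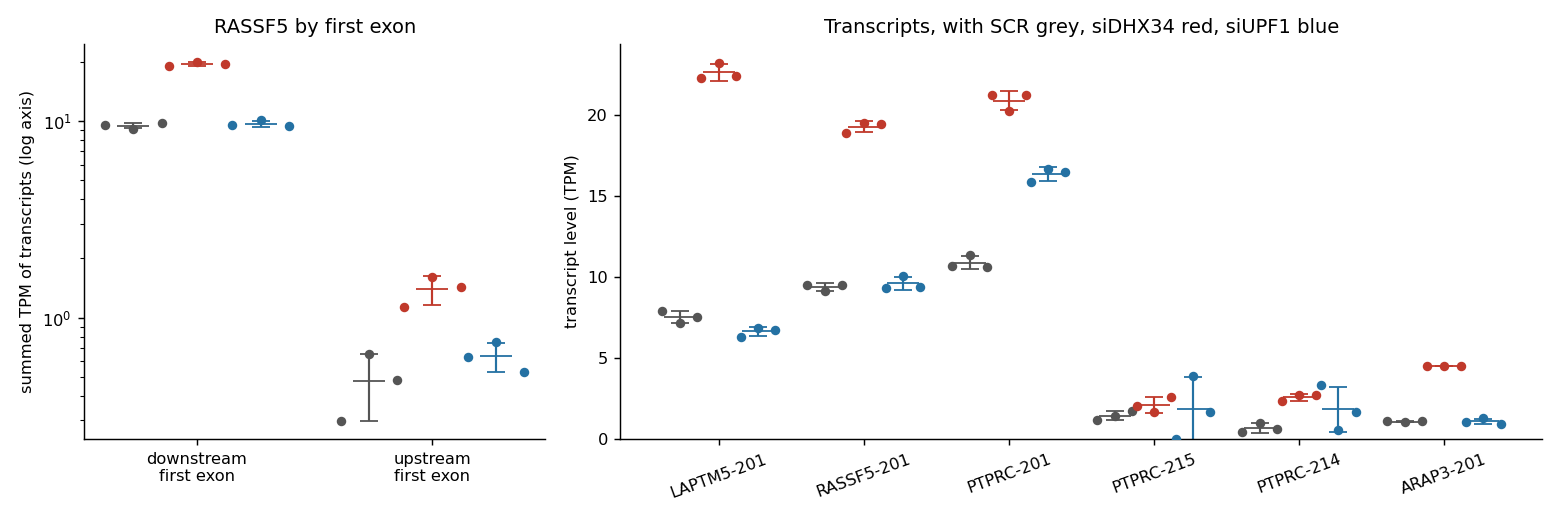
Left, summed TPM (log axis) of RASSF5 transcripts by first exon; right, TPM (axis from 0) of 6 transcripts, in SCR (grey), siDHX34 (red) and siUPF1 (blue), with 3 libraries as points and the mean ± SD. LAPTM5-201, RASSF5-201, PTPRC-201 and ARAP3-201 have their 3 highest libraries in siDHX34, and PTPRC-214 and PTPRC-215 spread widely in siUPF1, PTPRC-215 from 0 to 3.91 TPM.

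CD45 is known by exons A, B and C of PTPRC, which code for part of its outer domain and are spliced in or out. The isoform names of CD45 follow these exons, RO for the form with none and RABC for the form with all 3. Exons A and C are shown, and exon B, at chr1:198699564-198699704 (exon 5, 141 bases), is not. On the plus strand of GRCh38 A and C lie at chr1:198696712-198696909 (exon 4, 198 bases) and chr1:198702387-198702530 (exon 6, 144 bases).
Exon A: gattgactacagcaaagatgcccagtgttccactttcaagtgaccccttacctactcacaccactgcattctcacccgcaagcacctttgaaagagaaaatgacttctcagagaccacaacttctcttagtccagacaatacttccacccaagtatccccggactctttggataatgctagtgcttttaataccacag
Exon C: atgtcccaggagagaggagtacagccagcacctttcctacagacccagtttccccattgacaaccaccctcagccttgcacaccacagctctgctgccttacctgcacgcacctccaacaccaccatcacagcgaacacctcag

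Among 11 PTPRC transcripts that span this stretch, the 2 without A, B and C held most of the TPM. Their share was 85.6%, 80.9% and 78.7% in SCR, 80.3%, 79.3% and 77.3% in siDHX34 and 79.7%, 75.7% and 79.5% in siUPF1. The ranges of the 3 groups overlapped. Transcripts with exon B made up 18.3% ± 3.51 in SCR, 21.0% ± 1.51 in siDHX34 and 21.7% ± 2.24 in siUPF1 (SD, n = 3). Exon A was in 1.23% ± 1.06, 1.58% ± 0.281 and 1.87% ± 0.690, and exon C in 1.5% ± 1.53, 2.05% ± 1.22 and 2.60% ± 0.169 (SD, n = 3). For siUPF1 against SCR, the exact two-sided permutation p was 0.3 without the exons and for exon B, 0.5 for exon A and 0.4 for exon C. Much of the exon B share came from PTPRC-214 and PTPRC-215, the latter an annotated fragment of 592 bases. In expected counts, which do not divide by length, the form without the exons held 94.5%, 92.2% and 91.8%, and exon B 5.45%, 7.80% and 8.21%, in SCR, siDHX34 and siUPF1.

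PTPRC-201, the RO form, was at 10.7, 11.3 and 10.6 TPM in SCR, 21.2, 20.2 and 21.2 in siDHX34 and 15.9, 16.7 and 16.5 in siUPF1. These groups did not overlap, in the same order as for the whole gene. It was the single transcript called in siUPF1 among 21 of the 50 member transcripts that passed the filter on low counts, where 2.59% of 62497 transcripts tested were called. Its log2 fold change was 0.33 (edgeR adjusted p = 0.00344, SE 0.0353). No member transcript passed in any of the 6 fits that each left out a library. PTPRC-214, which has exon B, was at 0.415, 1.02 and 0.648 TPM in SCR and at 2.33, 2.73 and 2.70 in siDHX34, and its 3.33, 0.561 and 1.67 TPM in siUPF1 spanned both.

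ARAP3-201 took 61.7% ± 8.30, 68.1% ± 3.12 and 68.0% ± 11.0 of ARAP3 TPM in SCR, siDHX34 and siUPF1 (SD, n = 3). It stood at 1.10, 1.04 and 1.11 TPM in SCR and at 4.52, 4.53 and 4.55 in siDHX34. In siUPF1 it was at 1.08, 1.28 and 0.955 TPM, so only siDHX34 was separate. ARAP3-204, a transcript with no defined coding sequence, held 14.7% ± 1.73 in SCR, 9.03% ± 1.60 in siDHX34 and 4.57% ± 3.20 in siUPF1 (SD, n = 3). Its share in siUPF1 lay under all SCR libraries, with the smallest exact permutation p that 3 against 3 allows, 0.1 (0.945 after adjustment over 13 shares). Its log2 fold change there was -2.03 (edgeR adjusted p = 0.142, SE 0.695).

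INPP5D was split unevenly between transcripts. The full-length INPP5D-201 and INPP5D-204 differ in their first exons and by 3 bases at the start of exon 4. INPP5D-201 was at 0.194, 0.0674 and 0.330 TPM in SCR and at 0.979, 0.916 and 0.685 in siDHX34. INPP5D-204 was at 0.140, 0.439 and 0.194 TPM in SCR and at 0.593, 1.05 and 1.29 in siDHX34. In siUPF1 they were at 0.0423, 0.182 and 0.222 and at 0.534, 0.349 and 0.246 TPM. Both were thus higher in all siDHX34 libraries, while their ratio differed between libraries of the same group. INPP5D-210, a retained-intron fragment of 439 bases, held 38.3% ± 16.4 of INPP5D TPM in SCR, 21.0% ± 12.8 in siDHX34 and 37.2% ± 6.99 in siUPF1 (SD, n = 3), but only 2.84%, 1.18% and 2.92% of the counts. For INPP5D the fit on counts was 1.91, and the TPM scale gave 1.34 with a pseudocount of 0.5.

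The other genes of these pathways were followed in 6 lists, 175 genes without the 5. These lists were chosen with earlier results of these data known, so their counts and shares are a description. Of 151 tested in siDHX34, 46 rose and 4 fell, 30.5% and 2.65%, beside 5.54% raised and 4.86% lowered over all genes. The list median was 0.16 on the log2 scale and that of all genes 0.02. Among the 142 with at least 10 counts in every SCR library the numbers were the same, 46 and 4. In siUPF1 21 of 148 rose and 26 fell, 14.2% and 17.6%, near the 12.4% and 12.9% of all genes. On the TPM scale this split was 35 and 4 in siUPF1, where the median of all genes stood 0.152 higher than in the fit on counts. The share of all genes called on that scale was not counted, so this split has no background. The 46 rises in siDHX34 came to 21 on length-scaled counts and to 30 without SCR replicate 3 or siDHX34 replicate 2, and the 21 rises in siUPF1 to 12 on length-scaled counts and without UPF1 replicate 1 or 2.

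Around PTPRC, 7 of 16 tested genes of Src kinase control rose in siDHX34 and none fell by edgeR, while 2 fell by DESeq2 and 2 at an unadjusted p under 0.05. The largest rises were those of the phosphatases PTPN22 (log2 fold change 1.39, edgeR adjusted p = 0.000688) and PTPRJ (0.94, 0.000264) and of the kinase SRC (0.58, 9.53e-05). In siUPF1 TEC rose by 0.27, and the phosphatase PTPN6 (-0.68) and the kinase LYN (-0.23) fell. Around INPP5D, 9 of 29 phosphoinositide genes rose in siDHX34 and none fell by edgeR (1 by DESeq2, 3 at an unadjusted p under 0.05), led by the adaptors DOK2 (0.90) and DOK3 (0.83) and the lipid phosphatase INPP4A (0.72). In siUPF1 8 rose and 3 fell, INPP4A by 0.56 among the rises, and SH2D1B (-1.65), PIK3AP1 (-0.63) and the kinase PIK3CG (-0.49) among the falls. All these passed the edgeR threshold. Over all genes edgeR called 5.54% raised and 4.86% lowered in siDHX34, and 12.4% and 12.9% in siUPF1. For DESeq2 and the unadjusted p the share of all genes was not counted, so those counts have no background.

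Around RASSF5, 5 of 29 genes of Rap1 and integrin activation rose in siDHX34 and 3 fell, beside 5.54% and 4.86% of all genes. The adaptor FYB1 rose by 1.26 and talin, TLN1, which links integrins to actin, by 0.65, while SAV1, HRAS and RAP1A itself had -0.26, -0.24 and -0.21. FYB1 fell by 0.69 in siUPF1, where RASSF1, a relative of RASSF5, rose by 1.11. Around ARAP3, 9 of 33 regulators of small GTPases rose in siDHX34, with VAV1 (0.90), ARHGAP4 (0.79) and ARHGEF6 (0.76) first, and ARF5 fell (-0.31). In siUPF1 4 of 32 rose and 8 fell, beside 12.4% and 12.9% of all genes. ARHGAP25 (-0.94) and ARHGDIB (-0.72) fell by the most. Around LAPTM5, 4 of 22 genes of receptor sorting rose in siDHX34, among them UBASH3A (1.15), the lysosomal CD68 (0.66) and LAMP2 (0.40). None of them fell by edgeR, 1 by DESeq2 and 2 at an unadjusted p under 0.05, again without a background for DESeq2 and the unadjusted p. In siUPF1 LAMP2 rose by 0.61 and CD68 fell by 0.53.

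The list of pan-leukocyte surface and adaptor genes had the highest median in siDHX34, 0.70 over 22 tested genes of 30 listed. The untested ones, CD48, LSP1 and FCER1G among them, had counts too low for the filter. Of the 22, 12 rose by edgeR, and none fell by edgeR, by DESeq2 or at an unadjusted p under 0.05. Over all genes edgeR called 5.54% raised and 4.86% lowered there. CD84 (1.56, edgeR adjusted p = 8.38e-05), WAS (1.46, 2.64e-06) and CORO1A (1.43, 1.45e-06) rose most. In siUPF1 the median was -0.23, with 1 of 21 raised and 6 lowered, beside 12.4% and 12.9% of all genes. The 1 raised was CD84 (0.91, edgeR adjusted p = 0.00107), which also rose in siDHX34. CD52 fell by the most (-1.38, edgeR adjusted p = 2.14e-07).

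**Figure D4:**
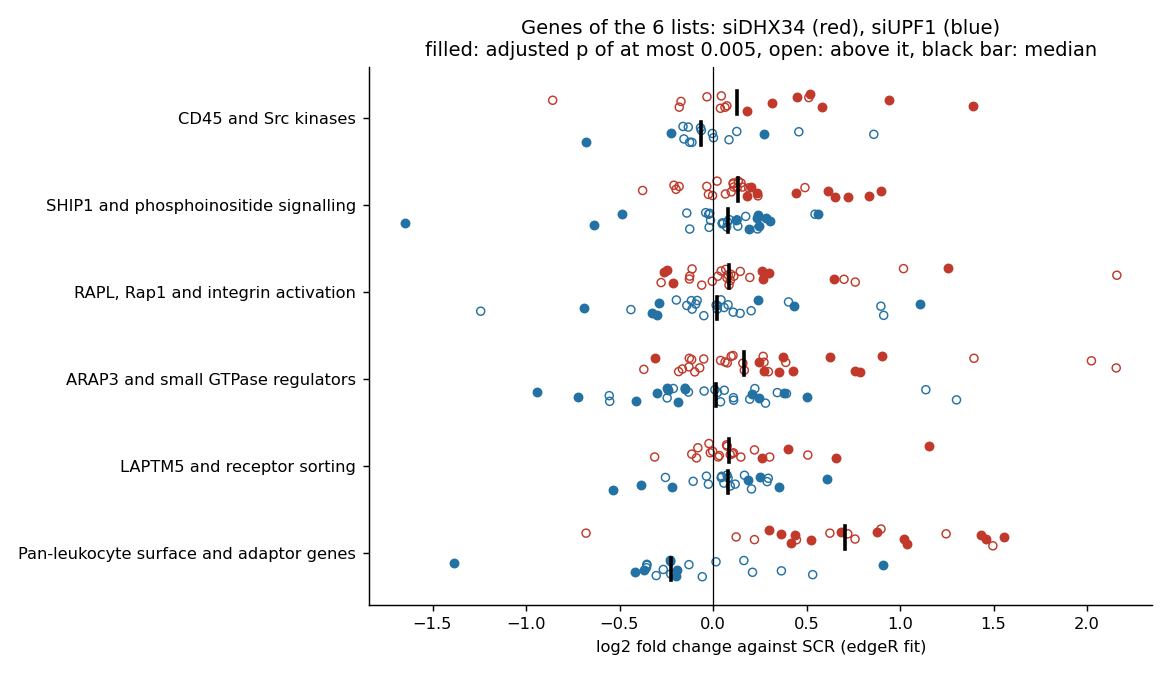
Log2 fold change against SCR (horizontal axis) of the tested genes in the 6 leukocyte signalling lists (rows), in siDHX34 (red, upper strip) and siUPF1 (blue, lower strip); filled points had an edgeR adjusted p of at most 0.005, open points did not, and black bars are medians. The list of pan-leukocyte genes has its red median at 0.70 and its blue median at -0.23, and the other medians lie between -0.06 and 0.17.

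Markers of blood lineages were read beside these values. The 14 erythroid markers that define K562 summed to between 25829 and 27403 TPM in SCR, 23758 and 25828 in siDHX34 and 15744 and 16944 in siUPF1. The 12 monocytic markers summed to between 16.4 and 18.5 TPM in SCR, 40.4 and 43.6 in siDHX34 and 14.7 and 15.7 in siUPF1, so the sum was higher where the 5 genes were. This sum was nearly all LYZ and CTSS, log2 fold changes 0.96 and 1.51, and 9 of the 12, CD14, CSF1R and S100A8 among them, were under 0.1 TPM in siDHX34. The 14 megakaryocytic markers summed to between 133 and 143 TPM in SCR, 116 and 126 in siDHX34 and 126 and 142 in siUPF1. This sum was mostly GP1BB, which fell in siDHX34 (-0.45), while THBS1 (3.31), ITGA2B (1.91) and ITGB3 (1.83) rose there. PF4, PPBP and GP9 were at or near 0. The 8 granulocytic markers summed to between 19.8 and 24.3 TPM in SCR, 9.38 and 11.1 in siDHX34 and 54.5 and 57.8 in siUPF1, mostly MS4A3, which fell in siDHX34 (-1.27) and rose in siUPF1 (1.24). PRTN3, a low granulocytic marker named after its values were seen, went the other way in siDHX34, where it rose by 2.59 (edgeR adjusted p = 0.000938, SE 0.396), with TPM of at most 0.287 in SCR and 0.999 to 1.40 in siDHX34. In the same order of groups, T and NK markers summed to between 23.5 and 24.0, 23.8 and 32.7, and 7.33 and 13.6 TPM, nearly all CD3D, with CD8A at 0 in every library. In that order B markers summed to between 2.45 and 3.72, 5.84 and 7.11, and 3.24 and 3.62 TPM, with MS4A1 at 0 in every library and CD22 raised in siDHX34 (1.21). The part of these markers in the levels of the 5 genes was not tested.

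Of the 18 blood transcription factors, 16 were tested. SPI1, which encodes PU.1, rose by 1.03 in siDHX34 (edgeR adjusted p = 1.45e-06, SE 0.0558) and fell by 0.49 in siUPF1 (edgeR adjusted p = 6.93e-05, SE 0.0636). MEIS1 (0.50) and RUNX1 (0.21) also rose and GATA2 (-0.31) and LMO2 (-0.27) fell in siDHX34. The calls there were 3 raised and 2 lowered of 16, beside 5.54% and 4.86% of all genes. In siUPF1 2 of 16 rose, RUNX1 (0.49) and MYB (0.27), and 7 fell, beside 12.4% and 12.9% of all genes. LMO2 (-0.66) fell more than SPI1 in siUPF1, and NFE2 (-0.48) fell as well. Of 10 known regulators of the CD45 exons, none rose in siDHX34 by edgeR, by DESeq2 or at an unadjusted p under 0.05. HNRNPA1 (-0.34) and SFPQ (-0.19) fell there by edgeR, 2 of 10 beside 4.86% of all genes. By DESeq2 7 fell, and 8 fell at an unadjusted p under 0.05. In siUPF1 CELF2 rose and 5 fell by edgeR, among them HNRNPL (-0.24), beside 12.9% of all genes lowered. There 6 fell by DESeq2 and 7 at an unadjusted p under 0.05. The share of all genes lowered was not counted for DESeq2 or the unadjusted p, so those counts have no background here. The part of these regulators in the levels or splicing of PTPRC was not tested. Fragment length, taken as transcript length minus effective length, was 254 bases in SCR and 258 to 259 in siDHX34. In siUPF1 it was 251 to 256, on both sides of SCR. The part of fragment length was not tested.

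The genes most like the 5 were sought among 10060 others with a mean of at least 5 CPM over the libraries. For each gene log2(CPM + 0.5), where CPM is counts scaled to the library total, was centred on its SCR mean and compared with the mean profile of the 5 over the 9 libraries by the root mean square difference. That mean profile was 1.39 in siDHX34 and 0.02 in siUPF1. The nearest were WAS (0.135), an actin regulator of blood cells, PALM3 (0.144), SNPH (0.154) and CORO1A (0.156), a leukocyte coronin. MGAT3 (0.164), PRG2 (0.165), the tetraspanin CD53 (0.189) and APOBR (0.207) followed. The 5 genes themselves lay 0.191 (LAPTM5) to 0.410 (PTPRC) from their own mean, so PTPRC was farther from it than each of these 8. WAS was at 1.47 in siDHX34 and -0.12 in siUPF1 on this scale, and CORO1A at 1.44 and -0.23, close to LAPTM5 at 1.47 and -0.29.

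**Figure D5:**
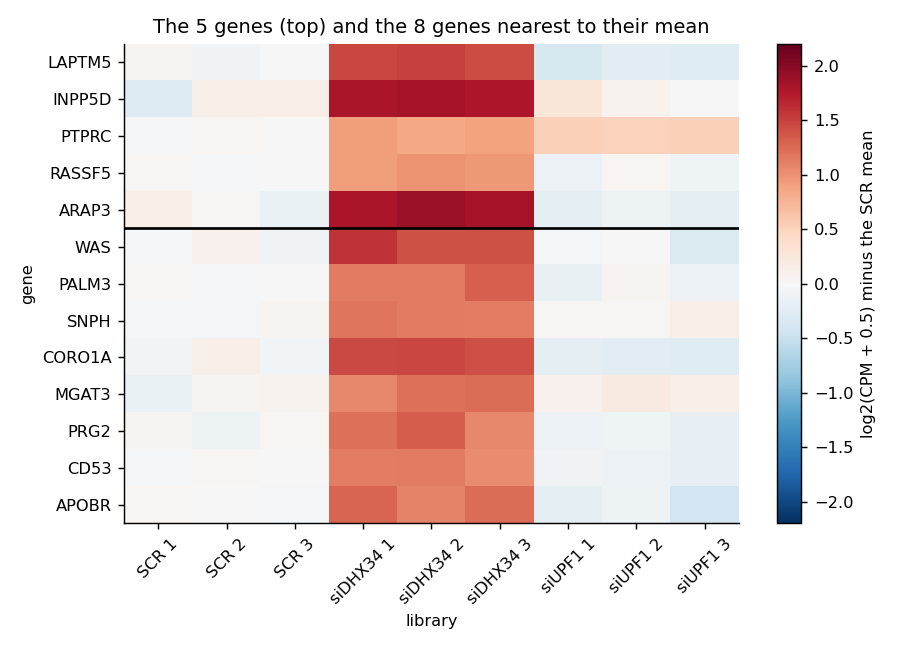
Colour gives log2(CPM + 0.5) minus the SCR mean in each of the 9 libraries (columns) for the 5 genes (above the line) and the 8 genes nearest to their mean profile (below it). The 5 genes average 0.88 to 1.84 in siDHX34 and the 8 others 1.10 to 1.47, and PTPRC stands out with 0.52 in siUPF1.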

How the data were processed

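RNA of K562 cells treated with non-targeting siRNA (SCR) or siRNA against DHX34 or UPF1 was sequenced, 3 libraries per group, grouped by their labels. The authors quantified reads with salmon on Ensembl release 93 transcripts of GRCh38, correcting for GC content, and deposited the expected count and TPM of each of 203027 transcripts. Salmon divides reads between isoforms by a model, so splits between similar or short isoforms are uncertain. The authors' 4 deposited tables of their own comparisons hold sleuth effects with p-values and SUPPA2 splicing differences, and were not used. Transcripts were joined to GENCODE release 44 (97.9% matched, 98.1% of counts) and summed per gene.

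The 5 genes and all lists were chosen with earlier results of these data known. Expected counts, rounded to whole numbers, were tested with edgeR 4.0.16 (R 4.3.3) by quasi-likelihood fits on 6 libraries per comparison, with TMM factors, filterByExpr at a minimum count of 10 and Benjamini-Hochberg adjustment over all genes or transcripts, and called at an adjusted p of at most 0.005. Fits were tested on simulated data. Alternatives were DESeq2 1.42.0, RLE factors, no filter, length-scaled counts, limma 3.58.1 on log2(TPM + 0.5) or log2(TPM + 0.1), 1 fit of all libraries, a replicate block, removal of the gene length trend, a threshold of 0.05 and leaving out each library. Shares of transcripts holding at least 5% of a gene's TPM were compared by exact permutation tests (SciPy 1.17.1). From each list the text names up to 3 called genes per direction and knockdown with the largest change among those with a mean of at least 1 CPM, and from markers also those at 0. Promoter windows are from RefSeq. Libraries held 73478797 to 103625443 expected counts, and depth limits INPP5D and single isoforms most.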

Additional observations from a re-analysis of the deposited data

How the results depend on the processing

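The 5 genes kept their higher level in the DHX34 knockdown under all alternatives run, with log2 fold changes from 1.34 to 2.01 for INPP5D, 1.66 to 1.88 for ARAP3, 1.36 to 1.55 for LAPTM5, 0.84 to 1.02 for RASSF5 and 0.76 to 0.96 for PTPRC. For the UPF1 knockdown PTPRC ran from 0.39 to 0.62 and LAPTM5 from -0.45 to -0.18. RASSF5 turned from -0.16 to 0.043 and 0.042 with limma at TPM pseudocounts of 0.1 and 0.5. INPP5D turned to -0.13 without SCR replicate 1 and to -0.06 without UPF1 replicate 1, and ran from -0.13 to 0.12 with a library left out, never called. The number of the 5 genes called in the UPF1 knockdown was 2, 4 at a threshold of 0.05 and 1 with limma on TPM at either pseudocount. The TPM scale put the median of all genes 0.116 higher in the DHX34 and 0.152 higher in the UPF1 comparison with a pseudocount of 0.5. Among the 8 genes most like the 5, 5 stayed when the floor was 1 CPM.

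For the 6 lists, 46 genes rose after DHX34 depletion, 21 on length-scaled counts and 30 to 45 with a library left out. The 4 falls became 13 at a threshold of 0.05, 11 with DESeq2, 7 with all 9 libraries, 11 with no filter, 0 with length-scaled counts and with limma on TPM at either pseudocount, 1 with the replicate block and 0 to 2 with a library left out. In the UPF1 knockdown the 21 rises became 36 at 0.05, 12 with length-scaled counts, 38 and 35 with limma at pseudocounts of 0.1 and 0.5, and 12 to 17 with a library left out. The 26 falls became 46 at 0.05, 41 with DESeq2, 17 with length-scaled counts, 4 with limma on TPM, and 21 to 25 with a library left out. The 1 transcript called in the UPF1 knockdown became 2 at 0.05, 3 with DESeq2, 0 with the replicate block and 0 in each fit without a library. The causes were not tested.

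The deviations of same-numbered libraries from their group means correlated from -0.20 to 0.14. Differently numbered libraries were not compared, so this does not decide whether replicate numbers pair the libraries. With the replicate block 34 list genes rose after DHX34 depletion, 22 rose and 33 fell after UPF1 depletion, and 2 of the 5 genes were called there.

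Depth limits INPP5D, which had 136 to 244 expected counts in SCR, and the isoforms under 1 TPM.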
